A study of Mus musculus with 10 samples.

Results

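The neurotrophin and GDNF family signalling genes Ntrk2, Ntrk3, Ngfr, Bdnf, Ntf3, Sort1, Ret, Gfra1 and Gfra2 were followed in ribosome-bound RNA of the mouse medial habenula. They were taken by symbol, 9 of the 32531 genes counted. The medial habenula is a paired nucleus of the epithalamus. Its left side (5 libraries) and its right side (5 libraries) were compared. All mice were adults of 1 transgenic line, Chat-TRAP (DW167), which carries EGFP fused to the ribosomal protein Rpl10a. All 10 libraries were pull-downs by translating ribosome affinity purification (TRAP), in which anti-EGFP antibodies capture tagged polysomes, so RNA of cells without the tag is depleted but not removed. The Chat driver limits the tag to cells that use it, no library without the transgene or without the pull-down was used here, and whether each library stands for its own animals is not stated in the labels. The p-values below therefore measure the spread between libraries, which may be technical.

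Neurotrophins are secreted growth factors that bind receptor tyrosine kinases of the Trk family, each with its preferred ligand, and share the receptor p75 (Ngfr). Brain-derived neurotrophic factor (Bdnf) acts on TrkB (Ntrk2) and neurotrophin 3 (Ntf3) mainly on TrkC (Ntrk3), while sortilin (Sort1) binds the uncleaved precursors and sorts them inside the cell. Ligands of the GDNF family work through a second design, in which a GPI-anchored co-receptor (Gfra1 for GDNF, Gfra2 for neurturin, Gfra4 for persephin) presents the ligand to the kinase Ret. In the brain TrkB is made by neurons as a full-length kinase and by astrocytes largely as a truncated form.

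Gene counts summed to 42488448 to 67942836 reads per library. The libraries fell apart by replicate number rather than by side. The 15 astrocyte markers, of which 0 were unread in any library, summed to 225 to 2594 CPM (reads per 1e6 gene reads) on the left and 228 to 2473 CPM on the right. The range was 225 to 241 CPM in replicates 1 and 5 of both sides and 686 to 2594 CPM in the other 6 libraries. The 14 oligodendrocyte markers followed with 110 to 124 CPM and 440 to 1796 CPM. The 14 medial habenula markers, Chat and Chrna3 among them, were read in every library and ran the other way, from 12384 to 12901 CPM in replicates 1 and 5 and from 6210 to 10574 CPM in the others. Replicates 1 and 5 of a side were also much alike. Over genes with 100 to 500 reads in a pair, chi-square per degree of freedom was 2.14 for the left pair and 1.29 for the right pair, against 6.71 to 49.7 for the 18 other pairs of the same side. They differed by more than counting noise and were kept as separate libraries, and results that rest on them are given with and without them.

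Per length, the co-receptor Gfra1 stood above the other 8 genes in every library. Its mean was 110 ± 25.6 CPM per kb of exon (SD, n = 10), which placed it 233rd of 19312 genes with a read and a known exon length. Sort1 came next at 23.0 ± 4.14 CPM per kb and was below Gfra1 and above Gfra2 in 10 of 10 libraries. Gfra2 (11.4 ± 1.92 CPM per kb) and Ntrk2 (8.95 ± 7.01 CPM per kb) did not differ beyond their spread, since Gfra2 was the higher in only 6 of 10 libraries. Ret followed at 3.0 ± 0.92 CPM per kb, below Ntrk2 in 8 of 10 libraries, and Ntrk3 at 1.68 ± 0.52 CPM per kb, below Ret in 10 of 10. Ngfr (0.982 ± 1.23 CPM per kb) and Bdnf (0.877 ± 0.473 CPM per kb) overlapped, with Ngfr the higher in 4 libraries, and Ntrk3 and Ngfr overlapped too. The place of Ngfr depended on the library: it stood above both Ret and Ntrk2 in right replicates 1 and 5, between Ret and Ntrk3 in left replicates 1 and 5, and below Bdnf in the other 6 libraries. Ntf3 was lowest at 0.0121 ± 0.0192 CPM per kb. With the longest transcript in place of the union of exons, Ntrk2 moved above Gfra2 and Bdnf above Ngfr.

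**Figure D1:**
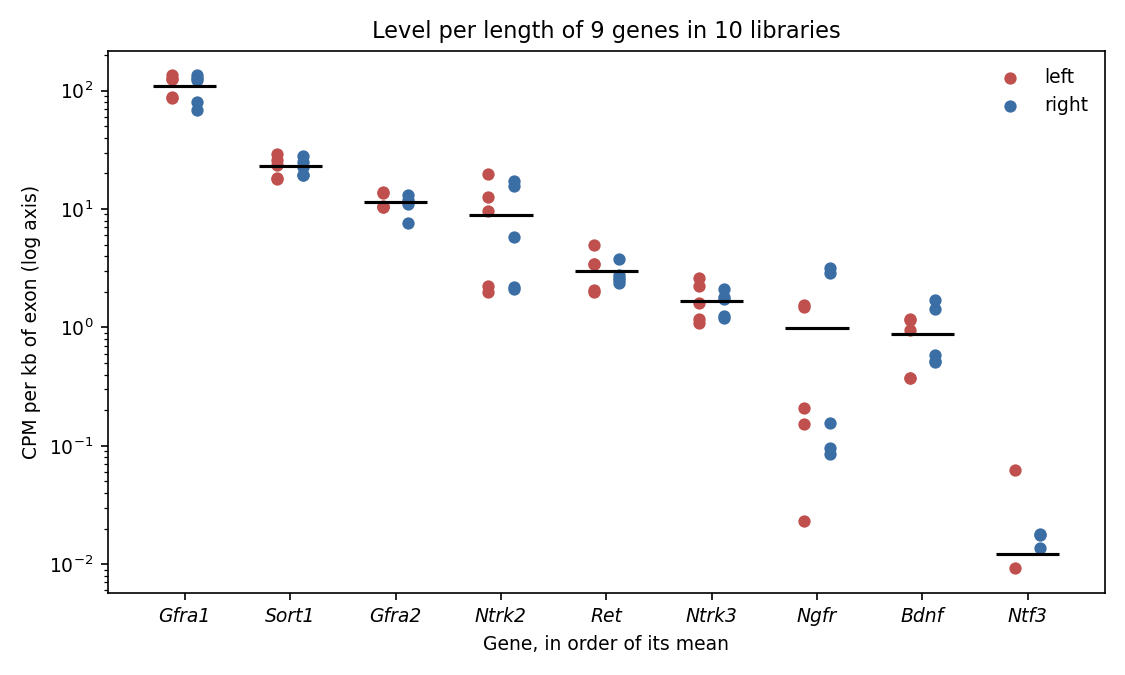
Level per length (CPM per kb of exon, log axis) of each gene, in order of its mean; each point is 1 library, left in red and right in blue, and the black line is the mean over 10 libraries. Gfra1 lies between 68.5 and 135 CPM per kb, above every point of the other genes, and Ngfr splits into 4 high and 6 low libraries; libraries with 0 reads of Ntf3 are not drawn.

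The GDNF arm was led by its co-receptors, and the kinase Ret was low beside them. Gfra1, which binds GDNF, stood at 738, 687, 471, 483 and 686 CPM in left replicates 1 to 5 and at 707, 738, 375, 440 and 678 CPM in right replicates 1 to 5. The sides overlapped, and replicates 3 and 4 of both sides were the low ones. The log2 fold change, left minus right, was 0.05 (SE 0.21, 95% interval -0.42 to 0.52, edgeR adjusted p = 1.0). Gfra1 lies on chromosome 19 of GRCm38 (mm10), from 58235604 to 58455909 on the minus strand. It shares 416 of its 5476 exonic bases with the antisense gene Gm16277, and no source used here states whether counting used strand, so its count is uncertain to that extent.

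Gfra2, the co-receptor for neurturin, had 36.9, 48.7, 36.8, 49.6 and 37.4 CPM in left replicates 1 to 5 and 42.5, 46.2, 38.8, 26.8 and 41.0 CPM on the right. Its lowest and its highest value, in right replicate 4 and left replicate 4, both came from libraries rich in astrocyte markers, and the sides overlapped. The fold change was 0.08 on the log2 scale (SE 0.15, 95% interval -0.25 to 0.41, edgeR adjusted p = 1.0). Gfra2 is on chromosome 14, from 70890120 to 70979838 on the plus strand.

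Ret, the kinase that GDNF family co-receptors share, had 14.1, 23.4, 23.2, 33.7 and 13.4 CPM in left replicates 1 to 5 and 16.9, 18.8, 25.7, 17.8 and 16.01 CPM in right replicates 1 to 5. Libraries 1 and 5 held the lowest values of each side, and the sides overlapped (log2 fold change 0.15, SE 0.25, 95% interval -0.41 to 0.72, edgeR adjusted p = 1.0). Per kb, Gfra1 exceeded Ret 51.7-fold to 64.5-fold in replicates 1 and 5 and 17.7-fold to 48.5-fold in the other 6 libraries. Ret is on chromosome 6, from 118151745 to 118197718 on the minus strand.

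Of the co-receptors outside the chosen genes, Gfra4, the persephin receptor, was read at a level near that of Gfra2, over a 2.11-fold range. It had 53.2, 40.8, 28.2, 27.1 and 55.4 CPM in left replicates 1 to 5 and 52.9, 40.5, 26.2, 28.2 and 53.5 CPM in right replicates 1 to 5. Libraries with the same replicate number were nearly equal on the 2 sides, and the level was highest where habenular markers were highest. Per length Gfra4 (18.7 ± 5.75 CPM per kb) exceeded Ret in 10 of 10 libraries and Gfra2 in 9. Gfra3, the artemin receptor, had 0 reads in all 10 libraries, which allows up to 0.0442 to 0.0706 CPM per library (3 reads), a limit that covers counting error only. Gfral, the GDF15 receptor, had at most 3 reads.

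**Figure D2:**
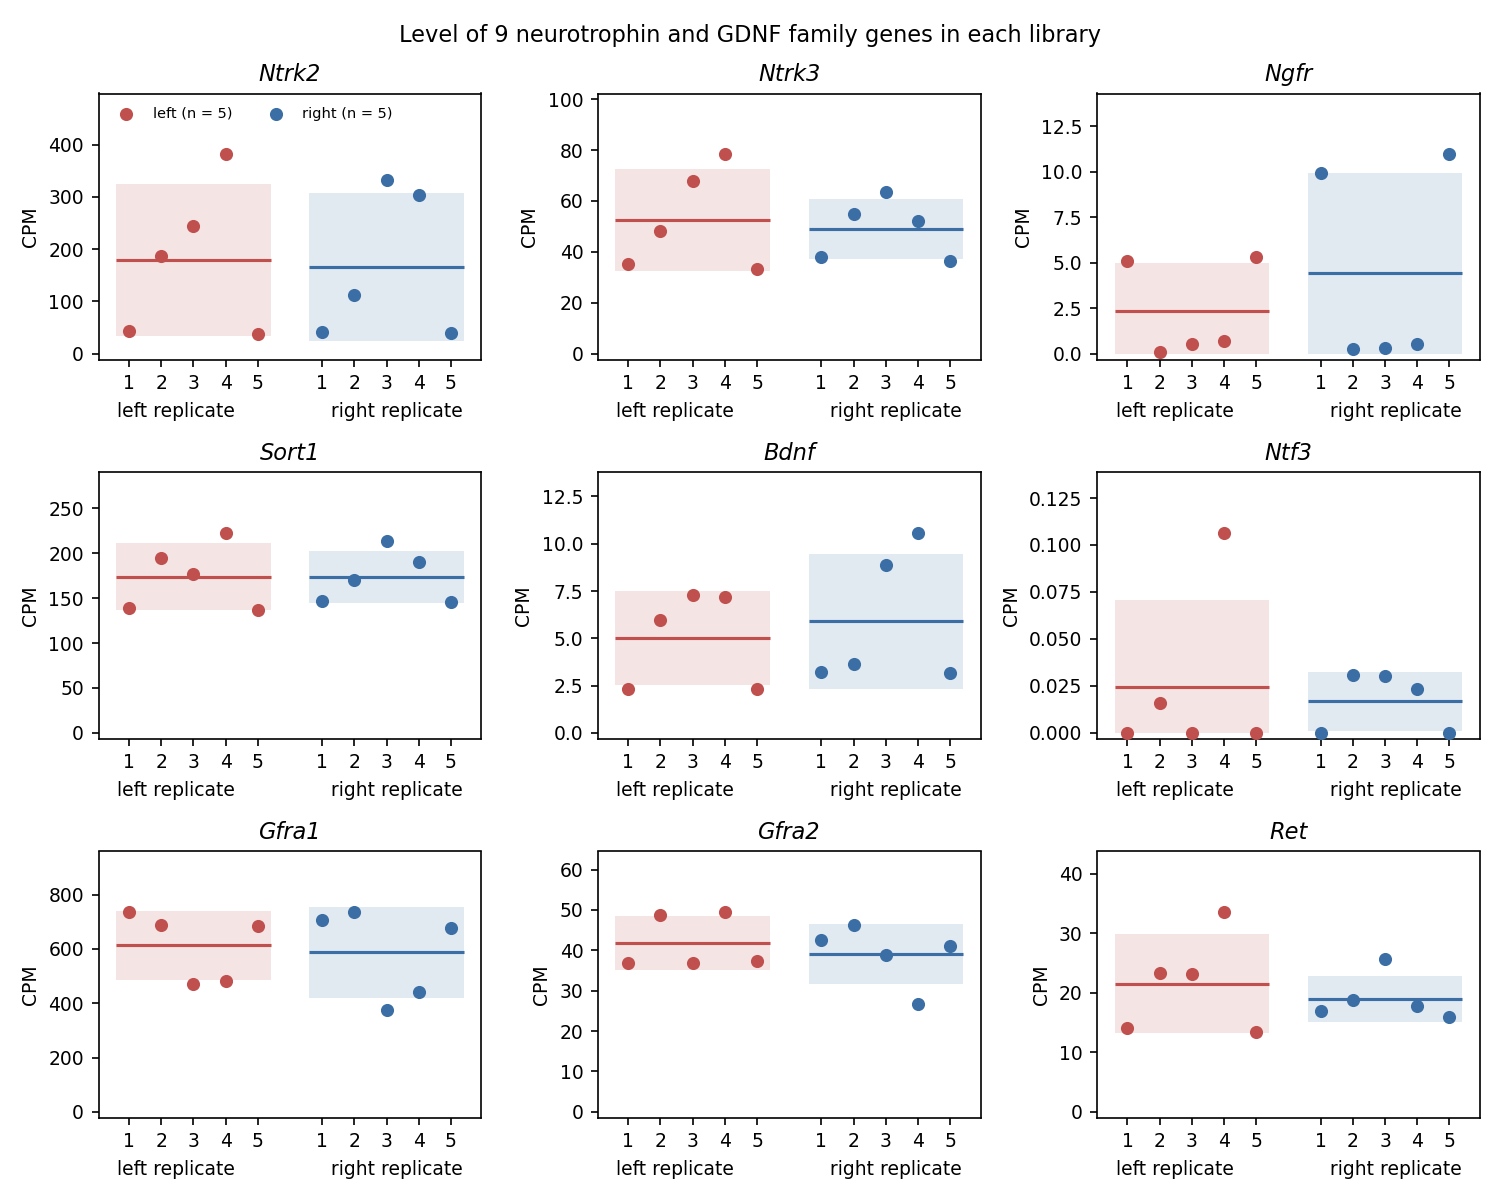
CPM of each gene in the 5 left libraries (red) and the 5 right libraries (blue), by replicate number; lines are side means and bands are ± 1 SD, drawn from 0 where they would pass below it. Within a side the replicates differ more than the side means do. Among genes read in every library, the fold range from lowest to highest library is widest for Ngfr and then Ntrk2.

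Of the Trk receptors, Ntrk2 varied most. It stood at 43.2, 188, 245, 383 and 38.7 CPM in left replicates 1 to 5 and at 42.6, 112, 331, 303 and 40.5 CPM in right replicates 1 to 5. Both sides were low and alike in replicates 1 and 5, the other 6 libraries were high, and the sides overlapped. The 9.88-fold range was wider on the log2 scale than that of 88.9% of the genes tested. The fold change between the sides was 0.06 on the log2 scale (SE 0.79, 95% interval -1.69 to 1.82, edgeR adjusted p = 1.0). The astrocyte markers given above moved with Ntrk2: Slc1a2, the astrocytic glutamate transporter, ranged over 33.1 to 38.5 CPM in replicates 1 and 5 but 215 to 1097 CPM elsewhere. Markers of neighbouring tissue moved too. The 10 thalamic markers summed to 822 to 857 CPM in replicates 1 and 5 but 1330 to 2415 CPM elsewhere, with Rora at 137 to 168 CPM and 371 to 841 CPM and with Gbx2 at 0 in at least 1 library. The 6 lateral habenula markers, each read in all libraries, summed to 54.1 to 64.6 CPM and 122 to 344 CPM, a 6.37-fold range. Their part in the level of Ntrk2 was not tested, and in bulk RNA fewer cells of a type and less RNA per cell cannot be told apart.

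With the glial score of a library (its mean log2 CPM of tested astrocyte, oligodendrocyte, microglia and endothelial and pericyte markers) as a covariate, the side difference of Ntrk2 was 0.10 on the log2 scale with an SE of 0.09 in place of 0.79 (95% interval -0.09 to 0.30, edgeR adjusted p = 1.0). Counts were made per gene, and Ntrk2 has 7 annotated coding transcripts with coding lengths of 1398 to 2463 bases, so full-length and truncated TrkB are added together in these values. Ntrk2 lies on chromosome 13, from 58806569 to 59133970 on the plus strand.

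Ntrk3, which encodes TrkC, moved the same way as Ntrk2 but less. Its level was 35.4, 48.3, 67.8, 78.6 and 33.2 CPM in left replicates 1 to 5 and 37.9, 54.8, 63.7, 52.2 and 36.3 CPM in right replicates 1 to 5. The lowest of each side were again replicates 1 and 5, over a 2.37-fold range. The log2 fold change was 0.08 (SE 0.27, 95% interval -0.52 to 0.67, edgeR adjusted p = 1.0). Ntrk2 exceeded Ntrk3 per kb 1.74-fold to 1.91-fold in replicates 1 and 5 and 3.20-fold to 9.08-fold in the other libraries. Ntrk3 is on chromosome 7, from 78175959 to 78738012 on the minus strand.

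Ngfr, the p75 receptor, showed the opposite pattern and by far the widest range. It had 302, 5, 31, 47 and 296 reads in left replicates 1 to 5, or 5.09, 0.0792, 0.524, 0.716 and 5.34 CPM. It had 667, 19, 22, 23 and 747 reads in right replicates 1 to 5, or 9.94, 0.292, 0.333, 0.541 and 11.0 CPM. High levels were seen in replicates 1 and 5 of both sides and low levels in the other 6 libraries, with no overlap between these sets, and 99.9% of the genes tested had a narrower range. The lowest library, left replicate 2, has an exact 95% Poisson interval of 0.0257 to 0.185 CPM. The level of Chat, the gene of acetylcholine synthesis, was also higher in replicates 1 and 5, but only over a 2.31-fold range. Per 100 Chat reads there were 2.91 to 5.67 Ngfr reads in replicates 1 and 5 and 0.0796 to 0.808 in the others.

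Between the sides Ngfr had a log2 fold change of -0.92 (SE 1.28, 95% interval -3.77 to 1.93, edgeR adjusted p = 1.0). The sign rests on replicates 1 and 5: without them, with 3 libraries per side, it was 0.16 (95% interval -1.53 to 1.85, edgeR adjusted p = 1.0). Ngfr is on chromosome 11, from 95568818 to 95587735 on the minus strand, has 1 annotated transcript and shares 0 exonic bases with other genes.

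Sort1 had the narrowest range of the 9 genes from lowest to highest library. It stood at 139, 195, 177, 223 and 136 CPM in left replicates 1 to 5 and at 147, 171, 214, 190 and 146 CPM in right replicates 1 to 5, a 1.63-fold range. Both sides had replicates 1 and 5 slightly below the others on each side. The log2 fold change was -0.02 (SE 0.17, 95% interval -0.40 to 0.36, edgeR adjusted p = 1.0). Sort1 lies on chromosome 3, from 108284082 to 108361511 on the plus strand, and shares 338 of 7569 exonic bases with the antisense gene Gm12523. Of its relatives, Sorcs2, a partner of p75 in precursor signalling, was as steady (114 to 152 CPM). Sorcs1 and Sorcs3 ranged 19.3-fold and 10.6-fold, from 1.83 to 35.4 CPM and from 2.63 to 27.8 CPM, and Sorl1 ranged from 32.3 to 103 CPM.

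Ligand transcripts were scarce. Bdnf had 2.33, 5.96, 7.30, 7.16 and 2.33 CPM in left replicates 1 to 5 and 3.22, 3.62, 8.88, 10.6 and 3.16 CPM in right replicates 1 to 5. Replicates 1 and 5 were the lowest of each side, and the sides overlapped. The log2 fold change was -0.27 (SE 0.49, 95% interval -1.37 to 0.82, edgeR adjusted p = 1.0). Bdnf is on chromosome 2, from 109674700 to 109727007 on the plus strand, with 11 annotated transcripts that were counted together. It shares 896 of 6217 exonic bases with the antisense gene Gm45346.

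Ntf3 had 0, 1, 0, 7 and 0 reads in left replicates 1 to 5 and 0, 2, 2, 1 and 0 reads in right replicates 1 to 5. Only left replicate 4, at 0.107 CPM, was above 3 reads, and replicates 1 and 5 of both sides were at 0. These depths allow up to 0.0442 to 0.0706 CPM in a library with 0 reads. Ntf3 was left out of the fit for its low counts. The difference of mean log2(CPM + 0.1) was 0.04, left minus right (exact two-sided permutation p = 1.0 over 252 assignments, smallest possible p = 0.00794). Ntf3 is on chromosome 6, from 126101412 to 126166910 on the minus strand.

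Of the other ligands, Gdnf ranged from 0.0506 CPM in left replicate 1 to 0.848 CPM in right replicate 3, and replicates 1 and 5 of each side had 3 to 9 of its reads. Ntf5 (neurotrophin 4), neurturin (Nrtn), artemin (Artn) and persephin (Pspn) reached at most 0.371, 0.118, 0.270 and 0.337 CPM. At these counts 1 library can decide a mean.

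**Figure D3:**
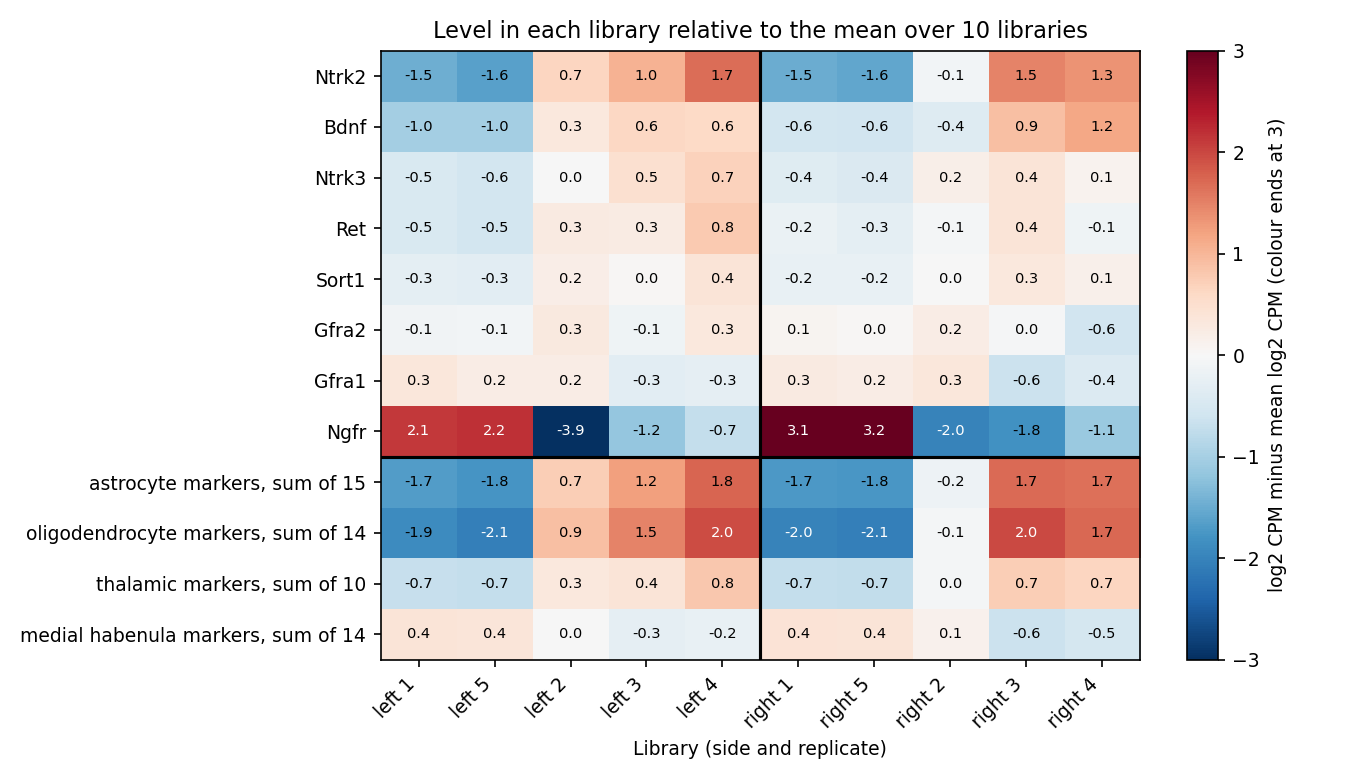
Log2 CPM of 8 genes and of 4 summed marker lists in each library, minus the mean over the 10 libraries; left libraries stand left of the black line, and replicates 1 and 5 come before 2, 3 and 4 on each side. Ntrk2 and Bdnf are low in replicates 1 and 5 like the astrocyte and oligodendrocyte sums, Gfra1 is low in replicates 3 and 4 and about equally high in 1, 2 and 5, the medial habenula sum is highest in 1 and 5, and Ngfr is high in 1 and 5 by a wider margin than any other row.

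The comparison of the sides asked whether the transcripts differ between left and right medial habenula. Of the 8 genes in the fit 0 passed the threshold (edgeR quasi-likelihood test, Benjamini-Hochberg adjusted p under 0.05), where 0% of the 16250 genes tested were called. Unadjusted p-values under 0.05 were found for 90 genes, fewer than evenly spread p-values would give. There were 297 with the replicate number as a block and 500 with the glial score as a covariate, both edgeR fits with 0 genes called. The 0 calls therefore do not show that the sides are alike. The smallest unadjusted p of the 8 members in the side-only fit was 0.488, for Ngfr. DESeq2 also called 0 genes, with 273 at an unadjusted p under 0.05. The median log2 fold change of the 8 genes was 0.05, beside -0.01 for all genes tested, with 5 higher on the left and 3 higher on the right. In the side-only fit the 95% intervals lay within 1 log2 unit of 0 for Ntrk3, Sort1, Ret, Gfra1 and Gfra2 but not for Ntrk2, Bdnf and Ngfr. They included a 2-fold difference in either direction for Ntrk2 and Ngfr. For Bdnf (-1.37 to 0.82) they included a 2-fold excess on the right only.

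Lanes 4, 5, 1 and 2 each held the left and the right library of 1 replicate number, 2 to 5. Within lanes the left library was the higher in 3 of 4 for Gfra1, in 1 of 4 for Bdnf and Ntf3, and in 2 of 4 for each of the other 6 genes. With these lanes as a block, 0 of 16517 genes were called by edgeR. The log2 fold change was then 0.13 for Ntrk2 (95% interval -0.22 to 0.48), -0.16 for Bdnf (-0.65 to 0.33), -0.40 for Ngfr (-1.23 to 0.43) and 0.19 for Ret (-0.18 to 0.57), all at an edgeR adjusted p of 1.0. Left replicate 1 ran in lane 7 and right replicate 1 in lane 3, so neither entered the lane fit.

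**Figure D4:**
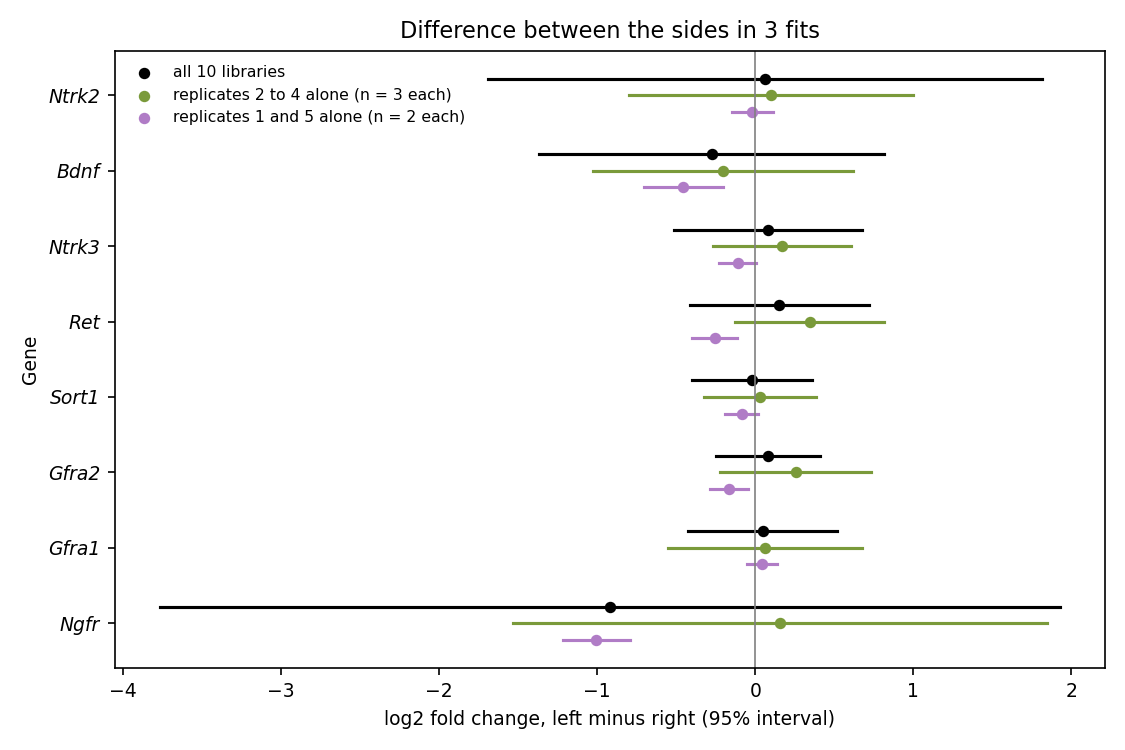
Log2 fold change, left minus right, with its 95% interval for 8 genes in 3 edgeR fits: all 10 libraries, replicates 2 to 4 alone, and replicates 1 and 5 alone. Intervals are narrow in replicates 1 and 5 alone, where Ngfr stands at -1.005, and include 0 for every gene in the other 2 fits.

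In replicates 1 and 5 alone the picture was different. With only these 2 libraries per side, 12.8% of 15569 genes were called by edgeR, 5.74% as higher in left libraries and 7.06% as higher in right ones. Of the 8 genes 3 were called, all higher on the right: Ngfr (log2 fold change -1.005, SE 0.09, edgeR adjusted p = 0.00419), Bdnf (-0.45, SE 0.11, adjusted p = 0.0338) and Ret (-0.26, SE 0.06, adjusted p = 0.0358). Ngfr stood at 5.09 to 5.34 CPM in these left libraries and 9.94 to 11.0 CPM in these right ones. In replicates 2 to 4 the left libraries spanned 0.0792 to 0.716 CPM and the right ones 0.292 to 0.541 CPM. There Bdnf was at -0.20 (95% interval -1.03 to 0.62, edgeR adjusted p = 1.0). Ret ran the other way, at 0.35 on the log2 scale (95% interval -0.13 to 0.82, edgeR adjusted p = 1.0). Because the 2 libraries of a side resemble each other so closely in replicates 1 and 5, that test compares those libraries and may not measure the spread between animals.

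Among the wider pathway lists 13 of 112 tested genes were called by edgeR in replicates 1 and 5 alone, 5 in the left direction and 8 in the right, beside 12.8% of all genes. Named after their values were seen, they included Ncam1, an alternative receptor for GDNF (-0.19), Rtn4r and Lingo1, which form a complex with p75 (-0.34 and -0.28), and Adam17, the sheddase that cleaves p75 (0.44, with 311 exonic bases shared with Iah1).

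In all 10 libraries 0 of 111 tested genes of these lists were called in either direction, and their median log2 fold change was 0.00033. The 29 Trk and Ret adaptors had a median of -0.04, with 13 higher on the left and 16 on the right. Kidins220, a scaffold of Trk receptors, averaged 429 ± 52.1 CPM in left and 448 ± 66.1 CPM in right libraries (SD, n = 5 each), and Grb10, an adaptor that binds Ret, 365 ± 53.4 and 381 ± 33.9 CPM. The 16 genes of the Ras-MAPK cascade had a median of 0.02, with Braf at 434 ± 39.8 CPM in left and 422 ± 37.4 CPM in right libraries. The 14 genes of the PI3K-Akt cascade had a median of -0.0033. Gsk3b, a kinase held in check by Akt, averaged 906 ± 68.8 CPM in left and 952 ± 37.6 CPM in right libraries, and Pdpk1, which activates Akt, 406 ± 60.7 and 413 ± 56.6 CPM.

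Upstream steps gave no called gene either. The 10 tested genes of proneurotrophin processing and sorting had a median of 0.09, with 8 higher on the left. Cadps2, which promotes release of dense-core vesicles, averaged 957 ± 300 CPM in left and 931 ± 279 CPM in right libraries, and the convertase Pcsk2 502 ± 79.0 and 482 ± 14.4 CPM. The 12 partners of p75 had a median of -0.01, with Maged1, which binds its intracellular domain, at 673 ± 39.1 CPM in left and 701 ± 66.2 CPM in right libraries. Arhgdia, a GDP dissociation inhibitor that p75 displaces, averaged 333 ± 61.3 and 350 ± 84.0 CPM. Of the 12 feedback inhibitors and modulators 6 were higher on each side, with Ptprs, a synaptic partner of TrkC, at 297 ± 51.6 CPM in left and 286 ± 19.3 CPM in right libraries and the Ras-pathway inhibitor Spry4 at 118 ± 18.8 and 118 ± 26.4 CPM. Regulators of Bdnf transcription had a median of -0.04, with Mef2d at 338 ± 26.7 CPM in left and 341 ± 30.9 CPM in right libraries. Among the other receptors Ncam1 averaged 293 ± 187 and 271 ± 142 CPM and the heparan sulphate proteoglycan Sdc3, which binds GDNF, 135 ± 24.3 and 135 ± 16.5 CPM. Braf, Mef2d, Pcsk2, Ncam1, Sdc3 and Kidins220 share exonic bases with another gene in the annotation.

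**Figure D5:**
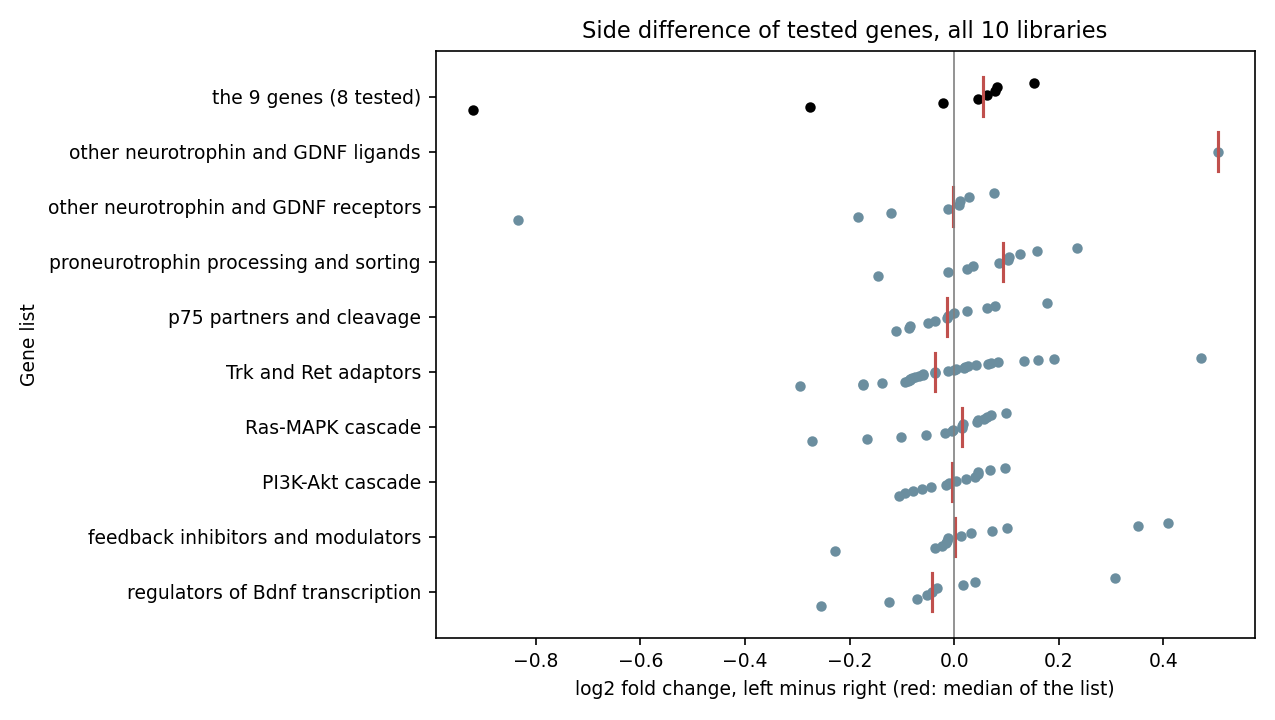
Log2 fold change, left minus right, of each tested gene (points) in all 10 libraries, by list, with the median of each list in red. The medians of the 8 tested members and of the adaptors lie at 0.05 and -0.04, and the lowest point among these members is Ngfr at -0.92.

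The genes whose pattern over the 10 libraries was most like each member's were found by the root mean square difference of log2 CPM centred on the gene's own mean, a description with no test. Nearest to Ntrk2 was Ntng1, the axonal adhesion protein netrin-G1, at a difference of 0.054 (59.8 to 567 CPM). Lrp1b and Kcnc2 came next at 0.081 and 0.088. Nearest to Gfra1 was Slc44a5, a choline transporter-like gene (9.51 to 19.3 CPM), at 0.045, and then St6galnac5 (0.06) and Rbm11 (0.07). The nearest to Sort1 were Extl3, Rsad1 and Atrnl1 (0.04 to 0.06), to Ntrk3 Epb4.1l3, Fam193a and Bptf (0.06 each), and to Ret Pcdhb20, Slc20a2 and Flrt3 (0.08 to 0.10). Gfra2 had Tpp1, BC017158 and Ntn4 (0.08 to 0.09) and Bdnf had Cox6a2, Stmn4 and Rps6ka5 (0.15 to 0.18).

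By this measure no tested gene came near Ngfr, but the measure is not scaled to a gene's range. Ngfr had a wider range than 99.9% of the genes tested and as few as 5 reads in a library. Genes of the same shape but smaller range cannot score as near, so its differences are not comparable with those of the other members. The nearest was Ltf, which encodes lactotransferrin, at a difference of 0.92. It had 1.33, 0.0634, 0.237, 0.107 and 1.10 CPM in left replicates 1 to 5 and 1.22, 0.169, 0.0303, 0.118 and 1.28 CPM in right replicates 1 to 5. Slc10a4, a vesicular protein of cholinergic neurons, came next at 1.19, with 2.33, 0.380, 0.7097, 0.168 and 2.53 CPM on the left and 3.26, 0.184, 0.227, 1.04 and 3.08 CPM on the right. The third, 1700001G11Rik, was at 1.39. It had 1.16 and 1.21 CPM in left replicates 1 and 5 and 0.551 and 0.500 CPM in right replicates 1 and 5. Ltf, Slc10a4, 1700001G11Rik and Ngfr were all highest in replicates 1 and 5 of each side. In those replicates Ngfr and Slc10a4 were higher in the right libraries than in the left ones. 1700001G11Rik was lower in the right ones, and Ltf overlapped.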

How the data were processed

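Ribosome-bound RNA of 10 libraries was sequenced, 5 per side. The authors deposited gene-level raw counts, each library in its own file. STAR 2.0.0e, HTSeq and mm10 were used, per the submitters' processing notes. No source used here gives the annotation or strand setting. Of 32537 rows 6 name no gene and were dropped. Among them, reads in no feature made up 13.6% to 18.9%, and ambiguous reads 2.25% to 2.81%, of all gene, no-feature and ambiguous reads. Groups and replicate numbers came from the titles, lanes from the descriptions; the names of the deposited files number replicates 2 to 5 of the titles as 1 to 4 and give the title's replicate 1 no number. The members and gene lists were chosen with earlier results of these data known.

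CPM is reads per 1e6 gene reads. Sides were compared in R 4.3.3 with edgeR 4.0.16 (TMM scaling, the filterByExpr filter with a minimum count of 10, robust quasi-likelihood F test, side as the only term, two-sided). The code was also run on simulated counts. Those were drawn without the pattern that same-numbered libraries share, so they do not vouch for the p-values of these libraries. The threshold was a Benjamini-Hochberg adjusted p under 0.05 over all genes tested. Intervals are at 95%. Log2 CPM for scores and likeness has a prior count of 2. Alternatives used DESeq2 1.42.0 and limma 3.58.1 (voom with sample weights). Exon lengths, coordinates and overlaps came from GENCODE M21 on GRCm38, in which all 9 members matched. Genes named are the members, the 2 most abundant of each list, ligands and receptors of these families, the 3 genes most like each member whose own mean reaches 1 CPM, and the most abundant marker; Chat, and the list genes named for replicates 1 and 5 alone, were named after their values were seen. Some genes that this rule names are not reported here. Figures were drawn with matplotlib 3.10.9.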

Additional observations from a re-analysis of the deposited data

Results flagged for a closer look

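Each side of 70 named genes was examined for a library that stood apart from the other 4 of its side by Dixon's criterion, 140 groups in all, and 6 did, where chance flags about 1 in 20 groups. Among the members, Ret stood at 25.7 CPM in right replicate 3, above 16.01 to 18.8 CPM in the other right libraries. Ntf3 stood at 0.107 CPM in left replicate 4, where the other left libraries had at most 0.0158 CPM. Gdnf reached 0.848 CPM in right replicate 3, against 0.0745 to 0.132 CPM in the other right libraries. Nrtn stood at 0.0722 CPM in left replicate 5, against 0.0457 to 0.0507 CPM in the others. Gfral was read only in left replicate 2, at 0.0158 CPM, and in right replicate 3, at 0.0454 CPM. Apart from Ret, these values rest on 1 to 56 reads.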

How the results depend on the processing

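The count of genes called between the sides was 0 in every alternative run except replicates 1 and 5 alone, which gave 1992 genes and 13 genes of the pathway lists; leaving out each library gave 0 to 0 for both. Same-numbered libraries deviated together with r = 0.0962 for replicate 2 and 0.715 to 0.873 for the others. Whether the numbers mark pairs is not stated in the labels. The main fit has side as its only term, so what same-numbered libraries share stays in its error. With the replicate number as a block the calls were 0 of 16250 (edgeR, with 297 genes at unadjusted p-values under 0.05). Other scalings moved the median of all genes by at most 0.02 (log2).

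Of 168 fold changes of the 8 members under alternatives 134 kept their direction and their side of the threshold, 32 changed sign and 2 became calls (Ngfr and Bdnf in replicates 1 and 5 alone). In replicates 1 and 5 alone the log2 fold changes that changed sign were Ntrk2 (-0.018), Ntrk3 (-0.11), Ret (-0.26, also called) and Gfra2 (-0.17). With limma-voom they were Bdnf (0.50), Sort1 (0.19) and Gfra1 (-0.16). The same fit kept the sign but moved Ntrk2 to 1.40 (adjusted p = 0.285) and Ngfr to -3.44 (adjusted p = 0.293), and it had 2359 genes with unadjusted p-values under 0.05. Ngfr was 0.16 in replicates 2 to 4 alone. Sort1 was 0.0057 with library size alone, 0.00084 with the lane block, 0.0071 with replicates 1 and 5 summed and 0.028 in replicates 2 to 4 alone. Leaving out each library gave -0.41 to 0.49 for Ntrk2, -0.10 to 0.21 for Ntrk3, -1.49 to -0.23 for Ngfr, -0.44 to 0.077 for Bdnf, -0.12 to 0.075 for Sort1, -0.058 to 0.29 for Ret, -0.071 to 0.13 for Gfra1 and -0.014 to 0.14 for Gfra2. The difference of Ntf3 was -0.17 with a pseudocount of 0.01 CPM (exact permutation p = 0.762) and -0.16 to 0.10 without each library. Per length, 4 of 9 members changed place with the longest transcript as length, and 0 to 2 when a library was left out. The causes were not tested. Counts of a few reads limit Ntf3, the other ligands and Ngfr outside replicates 1 and 5.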
